A study of Mus musculus and Macaca mulatta with 39 samples.

Results

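The 4 mouse Hox clusters were examined in the developing cerebral cortex as stretches of chromatin, through the regions called for 2 histone marks. HoxA was taken as chr6:52090000-52230000, HoxB as chr11:96040000-96240000, HoxC as chr15:102740000-102880000 and HoxD as chr2:74490000-74610000, all on the build mm9. These windows add up to 600 kb, and every called region overlapping them was a member. There were 287 such regions among the 921935 of the 16 mouse lists, against 626 in windows of equal length on both sides of each cluster (1200 kb in all). The members were chosen by position, not by any value.

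The series profiled embryonic cortex by chromatin immunoprecipitation and sequencing in 39 samples of mouse and rhesus macaque. The lists used here were those of C57BL6J mice, from 4 tissues: cortex taken on embryonic day 11.5 (E11.5), cortex at E14.5, frontal cortex at E17.5 and occipital cortex at E17.5. Each tissue had 2 biological replicates, and each replicate had 1 list for H3K27ac (antibody Abcam ab4729) and 1 for H3K4me2 (Millipore 07-030), with an input control shared by both marks. All groups were of the same strain, with no genotype or treatment differing between them, and every sample was bulk tissue crosslinked with formaldehyde and sonicated. The 10 rhesus lists are not used here. Each deposited list gives positions of called regions and nothing else, so the values below are lengths in bp covered by regions. A length of 0 means that no region was called, not that the mark was absent, and fewer cells carrying a mark cannot be told apart from less of it per cell.

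Hox genes encode homeodomain transcription factors that give body segments their identity along the head-to-tail axis. Their order in a cluster matches the order in which they are switched on, with the genes at the anterior end used earliest and closest to the head and those at the posterior end, of group 13, latest and closest to the tail. In the nervous system they are used in the hindbrain and spinal cord, and the forebrain is known for lacking their expression, with the clusters held by Polycomb repression. H3K27ac marks active promoters and enhancers and cannot sit on the same histone tail lysine as the Polycomb mark H3K27me3. H3K4me2 marks promoters and enhancers whether they are active or poised.

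The clusters hold 39 protein-coding genes in the RefSeq table of GRCm38.p6, 11 in HoxA, 10 in HoxB, 9 in HoxC and 9 in HoxD. Since its build differs from that of the lists, this table served for names and order only, and no region was assigned to a gene. HoxB runs from Hoxb13 to Hoxb1 between Ttll6 and Skap1, HoxC from Hoxc13 to Hoxc4 between Calcoco1 and Smug1, and HoxD from Hoxd13 to Hoxd1 between Evx2 and Mtx2. The 2 ends of a cluster are called the anterior side and the posterior side below, the posterior side being that of the highest-numbered genes.

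Hox promoters are known for being rich in CpG, the dinucleotide at which vertebrate DNA is methylated and which is kept in islands at developmental genes. RefSeq promoter sequences of GRCm38.p6 were at hand for 22 of the 39 genes (24 promoters). In the 250 bases before the start, counted on the strand of the gene, they held 2 to 35 CpG with a median of 12.5, against a median of 6 over 32851 mouse promoters. The promoter with most CpG among those at hand for each cluster (9 genes in HoxA, 3 in HoxB, 1 in HoxC and 9 in HoxD) is printed to show what kind of sequence lies in these windows, with every CG in capitals.
Hoxa13: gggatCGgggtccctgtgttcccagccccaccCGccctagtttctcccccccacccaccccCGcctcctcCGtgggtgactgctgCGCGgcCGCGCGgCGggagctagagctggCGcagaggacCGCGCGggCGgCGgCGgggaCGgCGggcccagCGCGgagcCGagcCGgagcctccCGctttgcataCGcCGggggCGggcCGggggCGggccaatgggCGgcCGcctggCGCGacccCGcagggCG
Hoxb4: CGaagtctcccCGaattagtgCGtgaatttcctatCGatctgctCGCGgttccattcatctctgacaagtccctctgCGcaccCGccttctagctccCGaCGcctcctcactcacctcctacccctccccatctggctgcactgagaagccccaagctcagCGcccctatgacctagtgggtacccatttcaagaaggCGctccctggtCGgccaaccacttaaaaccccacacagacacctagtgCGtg
Hoxc4: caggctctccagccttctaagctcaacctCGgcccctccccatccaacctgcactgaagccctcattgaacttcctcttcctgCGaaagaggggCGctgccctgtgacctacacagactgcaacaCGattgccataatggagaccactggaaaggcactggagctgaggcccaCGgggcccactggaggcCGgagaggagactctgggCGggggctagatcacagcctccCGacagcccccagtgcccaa
Hoxd13: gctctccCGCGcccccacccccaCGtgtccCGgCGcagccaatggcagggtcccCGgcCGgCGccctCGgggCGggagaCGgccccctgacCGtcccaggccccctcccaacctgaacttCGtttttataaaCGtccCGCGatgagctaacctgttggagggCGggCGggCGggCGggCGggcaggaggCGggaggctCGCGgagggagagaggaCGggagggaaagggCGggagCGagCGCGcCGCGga
The Hoxa13 stretch holds 35 CpG, a number reached by 2.97% of all promoters, and that of Hoxd13 holds 31, reached by 5.19%. Those of Hoxb4 and Hoxc4 hold 14 and 8, reached by 29.4% and 43% of all promoters. The genes Hoxa13 and Hoxd13 stand at the tail end of their clusters and shape the distal limb and the end of the body axis.

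The clusters also hold microRNA genes of 2 families, whose mature forms are printed with bases 2 to 8, the seed that pairs with target transcripts, in capitals.
miR-10a-5p: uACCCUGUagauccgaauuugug
miR-10b-5p: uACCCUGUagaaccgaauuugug
miR-196a-5p: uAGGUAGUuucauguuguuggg
miR-196b-5p: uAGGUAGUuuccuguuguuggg
The miR-10 pair shares the seed ACCCUGU and comes from HoxB and HoxD, next to the group 4 genes. The miR-196 forms share the seed AGGUAGU and are encoded in HoxA, HoxB and HoxC near the group 9 genes. The lists do not measure these RNAs, and no called region was tied to them.

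H3K27ac was called over little of the Hox clusters in every list, while H3K4me2 was called in each cluster in every list. Over the 600 kb, H3K27ac lists had 1 to 6 regions and covered 0.133% to 0.708%. The same lists covered 2.49% to 8.26% of the windows on both sides and 2.39% to 6.41% of the genome as far as the lists reach. H3K4me2 lists had 29 to 40 regions and covered 5.41% to 8.98% of the clusters, against 4.87% to 9.64% on both sides and 2.47% to 6.14% of the genome. The highest H3K27ac share was that of E17.5 frontal replicate 1, whose list was also the longest of its mark, with 87236 regions over 169.3 Mb. The lists had 47631 to 87236 regions for H3K27ac and 32366 to 76833 for H3K4me2, and depth beyond that is unknown.

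**Figure D1:**
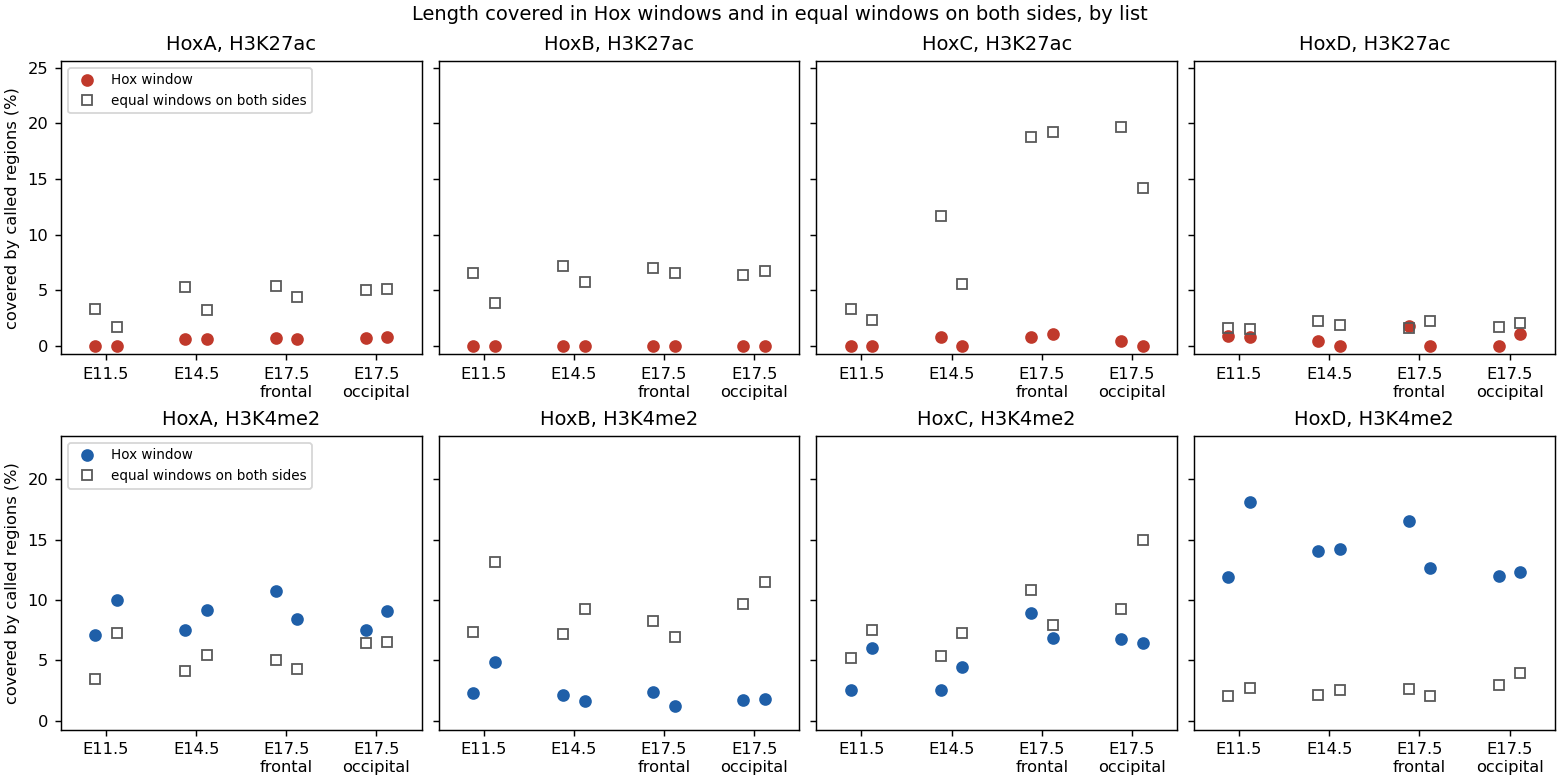
Share of each Hox window covered by called regions (filled circles, %) and of the equal windows on both sides (open squares, %), for H3K27ac (upper row) and H3K4me2 (lower row), 1 point per replicate of each tissue. H3K27ac stayed at 0 in all 8 lists of HoxB, and H3K4me2 in HoxD lay between 11.9% and 18.1%, far above its surroundings.

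HoxB was the emptiest cluster. No H3K27ac region was called in it in any of the 8 lists, whereas the windows beside it were covered over 6.22% ± 1.07 (SD, n = 8), from 3.81% to 7.19%. The difference was in the same direction in 8 of 8 lists (exact two-sided sign-flip permutation p = 0.00781, the smallest that 8 lists allow, adjusted over 8 tests p = 0.00893). Such a p-value measures how steady a difference is over lists of 4 tissues, not how the clusters compare with other stretches of the genome. In HoxA, H3K27ac covered 0.495% ± 0.312 of the window and 4.17% ± 1.32 beside it, a difference of -3.68 ± 1.08 percentage points with the same exact p. In HoxC it covered 0.379% ± 0.438 and 11.8% ± 7.3 beside it, a difference of -11.5 ± 6.99 points, also with that exact p. HoxD had the smallest gap, 0.615% ± 0.637 against 1.82% ± 0.292, or -1.21 ± 0.811 points in 7 of 8 lists (exact p = 0.0156, adjusted p = 0.0156). E17.5 frontal replicate 1 was the list in which the HoxD window, at 1.79%, exceeded its surroundings. In regions per 100 kb, the HoxD difference kept its sign at -0.26 but did not pass (exact adjusted p = 0.656).

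H3K4me2 split the clusters into pairs. HoxD carried it over 14% ± 2.28 of its length, against 2.64% ± 0.625 beside it, a difference of 11.3 ± 2.39 points. HoxA carried it over 8.7% ± 1.28, against 5.32% ± 1.34, a difference of 3.38 ± 1.33 points. HoxB and HoxC lay below their surroundings, at 2.27% ± 1.12 against 9.15% ± 2.24 and at 5.58% ± 2.21 against 8.54% ± 3.2. The differences were -6.88 ± 1.73 and -2.96 ± 2.35 points. Each of these 4 differences held in 8 of 8 lists (n = 8, exact sign-flip permutation p = 0.00781, adjusted p = 0.00893). As for H3K27ac, these p-values describe steadiness over lists, not a contrast with other stretches of the genome. In regions per 100 kb, the HoxC difference was -0.179 (exact adjusted p = 0.656). The size of several gaps depended on the windows chosen for comparison, though none changed direction or threshold. With windows of 2 widths on each side, or of 1 width after a gap of 50 kb, HoxC H3K4me2 differed by -9.33 and -9.51 points and HoxC H3K27ac by -18 and -19.8 points. HoxD H3K27ac was at -2.38 points with 2 widths, and HoxA H3K4me2 at 5.24 points after the gap. With the same number of widest regions from every list HoxD H3K4me2 was at 7.48 points.

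Within each cluster H3K4me2 covered more sequence than H3K27ac in 8 of 8 pairs of the same tissue and replicate. The mean excess was 11484 ± 1812 bp in HoxA, 4534 ± 2232 bp in HoxB, 7278 ± 2957 bp in HoxC and 16034 ± 2511 bp in HoxD (SD, n = 8 pairs; exact sign-flip permutation p = 0.00781 each, adjusted over 4 tests p = 0.00781). In HoxB the excess is the H3K4me2 length itself, since H3K27ac was 0 bp in all 8 lists. It could not be negative there, so the HoxB p-value is not read as support. Regions of either mark were shorter inside the clusters than in the lists as a whole. The median H3K4me2 region was 1075 to 1350 bp long in the clusters of a list and 1400 to 1650 bp in the whole list. The H3K27ac values were 550 to 1050 bp and 975 to 1575 bp, but the former rest on 1 to 6 regions per list. In E11.5 replicate 2, with 1 region, they were 950 and 975 bp.

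**Figure D2:**
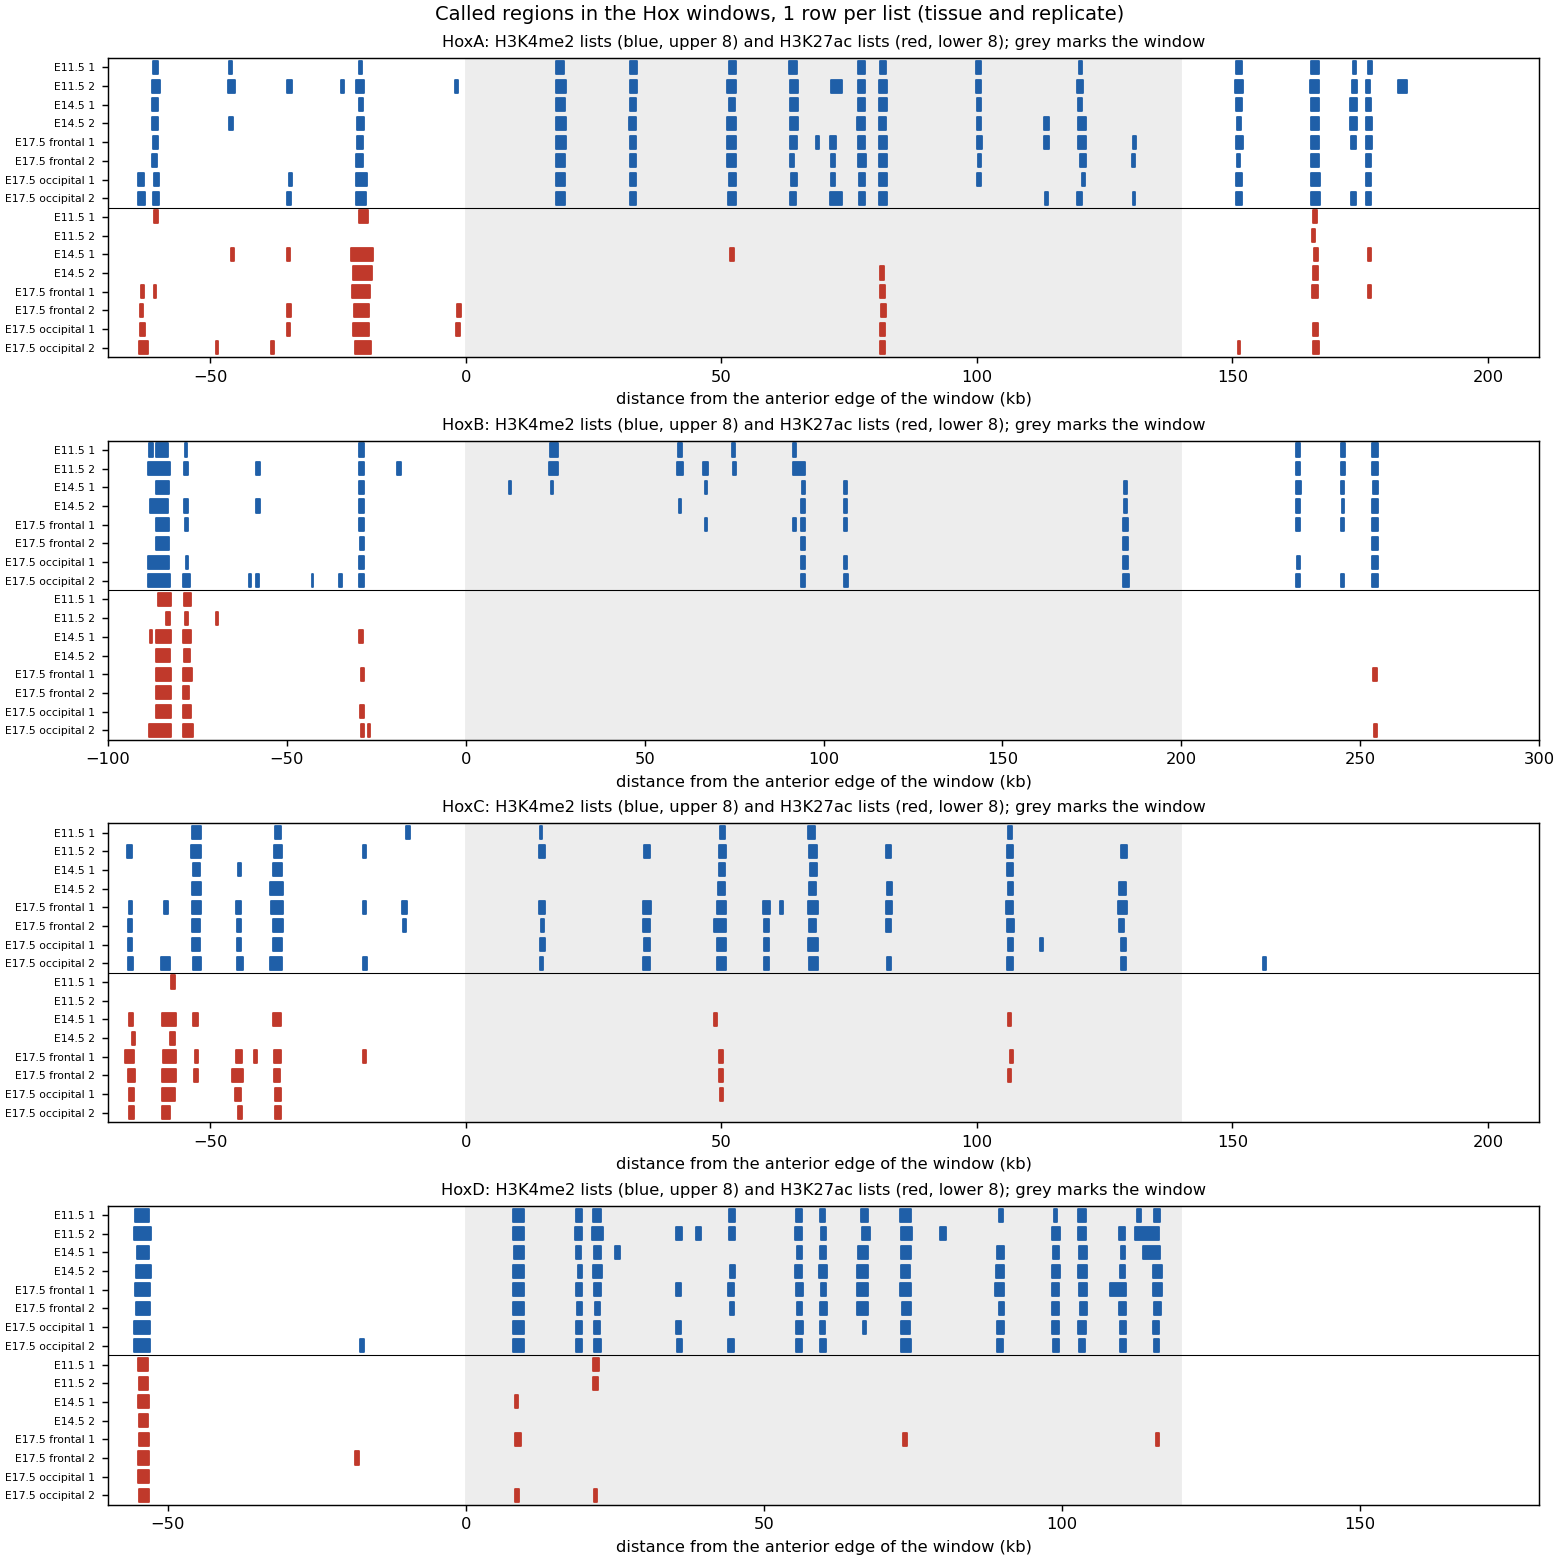
Called regions in and around each cluster, 1 line per list, with H3K4me2 in blue (upper 8 lists) and H3K27ac in red (lower 8 lists), against the distance in kb from the anterior edge of the window (grey). Blue regions recur at the same places in HoxA and HoxD in all 8 lists, and red ones are few inside the grey windows. Outside them red regions are unevenly placed, with none in the part drawn beyond the posterior edge of HoxC or of HoxD.

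Merging overlapping regions of the 8 lists of a mark gave 47 H3K4me2 loci in the clusters, 12 in HoxA, 8 in HoxB, 10 in HoxC and 17 in HoxD. Per 100 kb these were 8.57, 4, 7.14 and 14.2 loci. Of the 47, 20 (42.6%) had a region in all 8 lists and 7 (14.9%) in a single list, against 25.9% and 31% of the 91956 loci of the genome. The loci present in all 8 lists numbered 7 in HoxA, 1 in HoxB, 3 in HoxC and 9 in HoxD. Their covered length varied over the 8 lists with a median coefficient of variation of 13.9%, against 17% for the 23838 such loci of the genome. H3K27ac gave 9 loci, 2 in HoxA, 3 in HoxC and 4 in HoxD. None of these 9 was present in all 8 lists, against 17% of 137962 loci genome-wide, and 4 came from a single list.

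In HoxA the 7 constant H3K4me2 loci ran from near the anterior edge to chr6:52209676-52211350, which lay 119.675 kb into the window of 140 kb. The longest, chr6:52107576-52109550, was covered over 1550 and 1900 bp at E11.5, 1725 and 1950 bp at E14.5, 1950 and 1750 bp in frontal and 1700 and 1800 bp in occipital cortex. The locus chr6:52141126-52142950 held 1325, 1800, 1325, 1675, 1700, 1600, 1400 and 1450 bp in the same order of lists, and chr6:52170801-52172500 held 1200, 1575, 1575, 1450, 1700, 1625, 1525 and 1625 bp. At the first of these all tissues overlapped. At the second frontal lay above occipital cortex, and at the third frontal lay above E11.5 and E14.5, but no contrast passed the limma test at any of the 3. Of 5 loci on the anterior side 4 were in all 8 lists, and of 7 on the posterior side 3 were. The locus chr6:52203176-52204175 was called in 3 lists (950 bp in E14.5 replicate 2, 975 bp in frontal replicate 1 and 600 bp in occipital replicate 2), and chr6:52220376-52221100 in 3 lists of E17.5 only (550, 550 and 500 bp). Covered length was nearly the same on the anterior side (5991 ± 507 bp) and the posterior side (6188 ± 1420 bp).

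In HoxD the H3K4me2 loci were packed most densely. The locus chr2:74600176-74602100, near the anterior edge, had the lowest coefficient of variation of the 20 constant loci, 5.23%, with 1725 and 1900 bp at E11.5, 1650 and 1800 bp at E14.5, 1850 and 1925 bp in frontal and 1850 and 1900 bp in occipital cortex. Near the posterior edge, chr2:74493276-74497700 held 1675 and 4025 bp at E11.5, 2800 and 1450 bp at E14.5, 1525 and 1275 bp in frontal and 1000 and 850 bp in occipital cortex. Its 2 occipital values were the lowest of all 8, but no contrast passed the test (E17.5 against E11.5: log2 change -1.07, limma adjusted p = 0.12). The posterior side of HoxD carried more H3K4me2 than the anterior side, 9691 ± 2086 against 7081 ± 1166 bp (SD, n = 8, given without a test).

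HoxC carried more on its anterior side, 5103 ± 2151 against 2706 ± 1157 bp. Its 3 constant loci were chr15:102772801-102774225 (800 to 1350 bp), chr15:102811076-102812975 (1325 to 1900 bp) and chr15:102829051-102831400 (950 to 2275 bp). HoxB had 1 constant locus, chr11:96145126-96148625, with 775 and 3425 bp at E11.5 and 950 to 1900 bp in the later lists. Between chr11:96054726-96056400, its locus nearest to the Hoxb13 end, and the next one, 76.82 kb held no H3K4me2 region in any list, as the map of called regions shows.

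The H3K4me2 of the clusters was mostly without H3K27ac in the same sample. Of the H3K4me2 regions in the Hox windows, 3.45% and 2.78% overlapped an H3K27ac region of the same replicate at E11.5 (1 of 29 and 1 of 36). The shares were 10% and 3.23% at E14.5 (3 of 30 and 1 of 31), 15% and 9.09% in frontal cortex (6 of 40 and 3 of 33) and 6.06% and 8.82% in occipital cortex (2 of 33 and 3 of 34). In the windows on both sides the shares were 32% to 82.6%, and over whole lists 55.4% to 91.9%, so the Hox values lay below all of these. The mean difference was -56.8 ± 13.1 points from the windows on both sides and -70.6 ± 10.1 points from the whole list (SD, n = 8 pairs, 8 of 8 lower). With 1 to 6 H3K27ac regions per list in the clusters, these shares could hardly be higher, so they describe the low H3K27ac given above from the side of H3K4me2 and are given without a test. This comparison was added after the values had been seen. The lowest shares on both sides and in whole lists were those of E11.5 replicate 2, whose H3K27ac list was the shortest at 63.1 Mb.

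**Figure D3:**
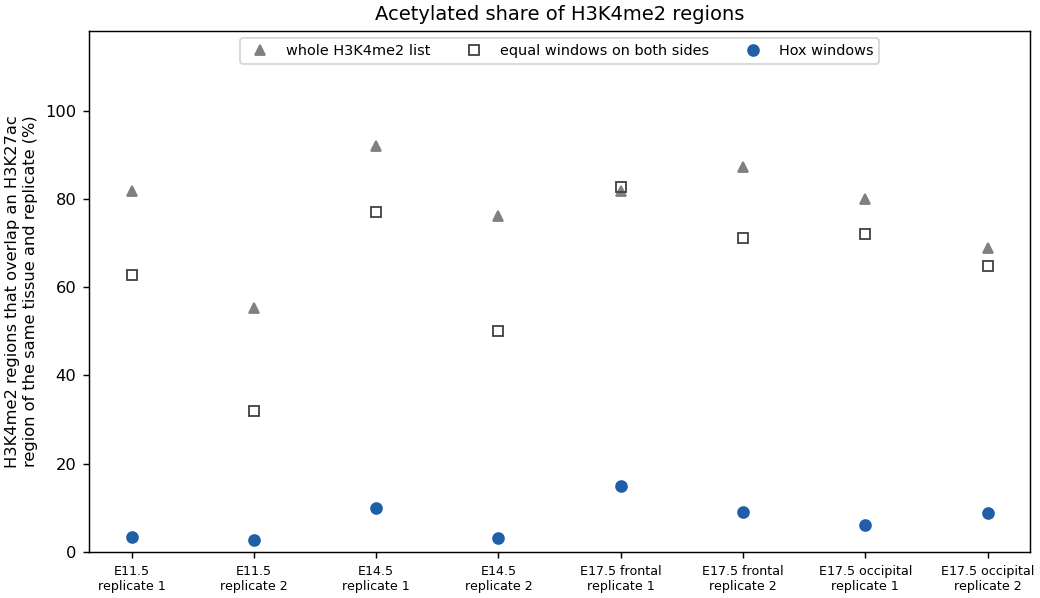
Share of H3K4me2 regions that overlap an H3K27ac region of the same tissue and replicate (%), in the Hox windows (filled circles), in the equal windows on both sides (open squares) and in the whole H3K4me2 list (triangles). The Hox values reach at most 15%, while the lowest value on both sides is 32%.

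The same held when all H3K27ac lists were joined. With 9 H3K27ac loci in the clusters, the shares of H3K4me2 loci without H3K27ac could hardly be lower, so they restate the low H3K27ac. Of the 40 H3K4me2 loci in the clusters called in at least 2 lists, 32 (80%) touched no H3K27ac region of any list, against 8.24% of 63453 such loci genome-wide. By cluster these were 9 of 11 in HoxA, 7 of 7 in HoxB, 6 of 8 in HoxC and 10 of 14 in HoxD. Among loci with H3K4me2 in all 8 lists, 12 of 20 (60%) never had H3K27ac in the clusters, against 1.03% of 23838. Conversely, 9 of 9 H3K27ac loci of the clusters lay on an H3K4me2 locus. The share over all H3K27ac loci is not given here, so this count is not read as a trait of the clusters.

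HoxB lay inside one long stretch with no H3K27ac region in any list, chr11:95986452-96266650, which is 280.2 kb long and reaches past the window on both sides. It held 9 H3K4me2 loci called in at least 2 lists. Of 137940 stretches between neighbouring H3K27ac loci, 601 (0.436%) were as long, and 2, this one included, held as many H3K4me2 loci. HoxA had a stretch of 68.85 kb on its posterior side, chr6:52172176-52241025, with 4 such loci. Of all stretches, 23 held that many or more. The longest stretches reaching into the other clusters lay mostly outside them and held few such loci. That at the posterior edge of HoxC was 122.5 kb long with 1 locus, a number reached by 4652 stretches, and that at the posterior edge of HoxD was 75.6 kb long with 0.

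The nearest loci with H3K27ac in all 8 lists lay well outside each cluster. Around HoxA they stood 126.2 kb beyond the anterior edge and 84.97 kb beyond the posterior edge. Around HoxB the distances were 76.2 kb and 101.6 kb, around HoxC 83.75 kb and 153.3 kb, and around HoxD 53.1 kb and 71.83 kb, in the same order. The locus on the posterior side of HoxC, chr15:102560376-102586675, was the widest of these, with 6475 to 25975 bp per list. That on the posterior side of HoxD, chr2:74415776-74418175, held 2000 to 2350 bp.

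The few H3K27ac loci inside the clusters were short and mostly came and went between replicates. In HoxA, chr6:52170976-52172175 had no region in either E11.5 list or in E14.5 replicate 1, 800 bp in E14.5 replicate 2, 950 and 900 bp in frontal and 1000 and 1075 bp in occipital cortex. All 4 E17.5 lists were above both E11.5 lists, yet the change did not pass (log2 change 2.56, SE 0.721, limma adjusted p = 0.0613), and 19.0% of all 85290 H3K27ac loci were called in that contrast. The other HoxA locus, chr6:52141701-52142525, held 825 bp in E14.5 replicate 1 alone. Both sat on H3K4me2 loci present in all 8 lists.

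In HoxD, chr2:74587626-74588700 held 1050 and 950 bp at E11.5 and was otherwise called only in occipital replicate 2, with 525 bp. It was the single Hox locus with H3K27ac in both E11.5 lists, and its E17.5 change did not pass (log2 change -2.12, SE 0.593, limma adjusted p = 0.0603). The locus chr2:74600727-74601800 was called in E14.5 replicate 1 (500 bp), frontal replicate 1 (975 bp) and occipital replicate 2 (725 bp), so that each tissue after E11.5 had it in 1 of its 2 replicates. Frontal replicate 1 alone had chr2:74493777-74494276 (500 bp) and chr2:74535977-74536651 (675 bp). In HoxC, chr15:102773002-102773925 was called in E14.5 replicate 1 (500 bp) and both frontal lists (525 and 575 bp), and chr15:102829626-102830475 in both frontal lists (625 and 850 bp) and occipital replicate 1 (575 bp). The third HoxC locus, chr15:102830876-102831475, held 600 bp in E14.5 replicate 1 alone.

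No H3K27ac locus of the clusters passed the test in any contrast. Of 5 tested (limma on log2(covered bp + 200), adjusted over all 85290 loci), 0 were called between E14.5 and E11.5, where 7.48% of all loci were, and 0 between E17.5 and E11.5, where 19.0% were. Between E17.5 and E14.5 it was 0 against 1.13% of all loci, and between frontal and occipital cortex 0 against 2.31%. At an unadjusted limma p below 0.05 there were 1, 3, 1 and 1 of 5 in these contrasts. With 5 loci tested, these counts give no result on the clusters. Leaving out single lists gave up to 2 calls for E17.5 against E11.5. The count was 1 without E14.5 replicate 1, E14.5 replicate 2 or occipital replicate 1, and 2 without occipital replicate 2. For E14.5 against E11.5 it was 1 without occipital replicate 1 or 2, and for E17.5 against E14.5 it was 1 without occipital replicate 2.

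Most H3K4me2 loci that passed the test between stages lay in HoxB. Of 40 H3K4me2 loci tested in the 4 clusters, 5 changed between E11.5 and E17.5, where 22.7% of 63453 loci did, and 4 of the 5 were in HoxB, which had 7 tested loci. Of the 5, 2 rose and 3 fell, against 19.5% and 3.13% of all loci. Pooled over both directions the called share was below that of the genome, upward it was lower and downward higher, and none of these differences was tested. The median Hox locus moved by 0.08 on the log2 scale while the median locus of the genome moved by 0.37. With loci in at least 3 lists, 4 of 39 Hox loci were called, 2 upward and 2 downward.

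The 3 loci that fell lay on the anterior side of HoxB. The locus chr11:96214126-96216725, nearest to the Hoxb1 end, held 2150 and 2600 bp at E11.5, 575 bp in E14.5 replicate 1, and no region in E14.5 replicate 2 or in any E17.5 list (log2 change -3.68, SE 0.585, limma adjusted p = 0.00801). The locus chr11:96179326-96180900 held 975 and 1575 bp at E11.5, 525 bp in E14.5 replicate 2 and none elsewhere (log2 change -2.85, SE 0.555, limma adjusted p = 0.0173). The locus chr11:96164451-96165550 held 750 and 900 bp at E11.5 and none in the 6 later lists (log2 change -2.35, SE 0.139, limma adjusted p = 0.00138). Both E11.5 lists had a region at each of the 3, and no E17.5 list had one. None of the 3 would have met the filter of at least 2 lists without the E11.5 lists, where they were longest. Their p-values are therefore not read as support. The E11.5 lists covered 69.3 and 111.7 Mb in all and the E17.5 lists 90 to 162.2 Mb, and the part of list length or depth in these differences was not tested.

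On the posterior side the change ran the other way. The locus chr11:96054726-96056400, at the Hoxb13 end, had no region at E11.5, 975 and 775 bp at E14.5, 1350 and 1325 bp in frontal and 1500 and 1675 bp in occipital cortex. It rose between E11.5 and E17.5 (log2 change 3.05, SE 0.264, limma adjusted p = 0.00281) and between E11.5 and E14.5 (2.42, SE 0.304, limma adjusted p = 0.0152). The call for E14.5 was less firm. It was lost with a pseudocount of 1000 bp (limma adjusted p = 0.0744) and with loci in at least 3 lists (0.0537). With single lists left out its log2 change was 2.285 to 2.555, and the call did not hold in every such run. No list before E14.5 had it and all 6 later ones did. None of these HoxB loci touched an H3K27ac region of any list.

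**Figure D4:**
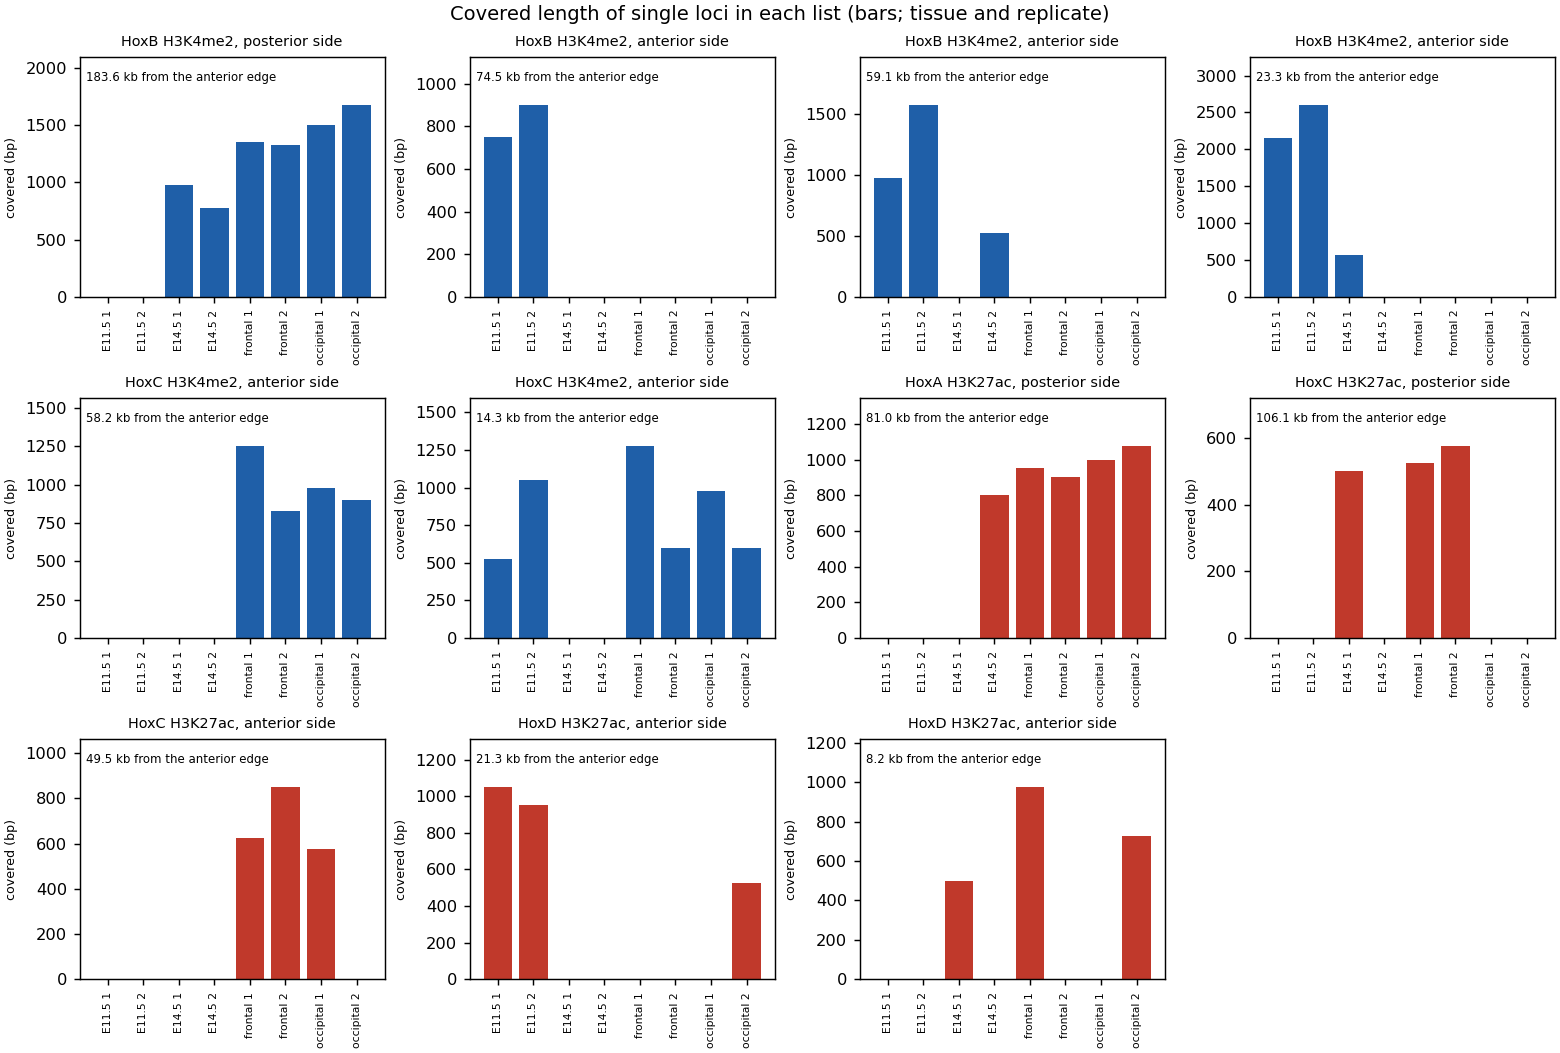
Covered length in bp (bars) of single loci in each of the 8 lists of a mark, H3K4me2 in blue and H3K27ac in red, with the distance from the anterior edge of the window. The 3 HoxB loci on the anterior side are held by the E11.5 lists and by at most 1 E14.5 list, and the HoxB locus on the posterior side by all 6 later lists.

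In HoxC, 1 locus had H3K4me2 in all 4 E17.5 lists and in no earlier list. The locus chr15:102820526-102821775 had no region in the 4 lists of E11.5 and E14.5, 1250 and 825 bp in frontal and 975 and 900 bp in occipital cortex. It rose against E11.5 (log2 change 2.56, SE 0.327, limma adjusted p = 0.00409) and against E14.5 (limma adjusted p = 0.00666). This locus met the filter of at least 2 lists through the E17.5 lists alone, where it was high, so these p-values are not read as support. The locus chr15:102864426-102865700 held 525 and 1050 bp at E11.5, none at E14.5, 1275 and 600 bp in frontal and 975 and 600 bp in occipital cortex, and rose between E14.5 and E17.5 (log2 change 2.36, SE 0.463, limma adjusted p = 0.0253; 0.0533 with the replicate number as a block). These were the 2 Hox loci of 40 called between E14.5 and E17.5, against 13.6% of all loci (13.4% upward).

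HoxA and HoxD had no called H3K4me2 locus in any contrast. Between E11.5 and E14.5, 2 of 40 Hox loci were called, 1 upward and 1 downward and both in HoxB, against 3.94% of all loci (1.87% upward and 2.08% downward). The downward one was chr11:96164451-96165550 (log2 change -2.35, limma adjusted p = 0.00342). That locus entered the test through the E11.5 lists alone, so this p-value is not read as support either. Between frontal and occipital cortex 0 of 40 were called, against 9.93% of all loci, and 1 had an unadjusted limma p below 0.05. That locus, chr2:74542276-74544400 in HoxD, held 1850 and 1800 bp in frontal cortex and 525 and 0 bp in occipital cortex (log2 change 2.41, limma adjusted p = 0.0772).

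These locus calls rested in part on single lists. For E17.5 against E11.5 the count of 5 became 1 without E11.5 replicate 1 and 8, of which 7 upward, without E11.5 replicate 2. For E17.5 against E14.5 the count of 2 became 4 without either E11.5 list, 0 without E14.5 replicate 1, and 1 without frontal replicate 1 or occipital replicate 2. For E14.5 against E11.5 it became 0 without E11.5 replicate 1 and 1 without frontal replicate 1 or 2, and for frontal against occipital cortex 1 without frontal replicate 1. The rise of chr11:96054726-96056400 to E17.5 held without any one list (limma adjusted p at most 0.0354). The fall of chr11:96164451-96165550 kept its log2 change of -2.35 in each of the 6 runs that left out a later list. It drops out of the tested loci without an E11.5 list, since only those lists held it. The fall of chr11:96214126-96216725 was lost without E11.5 replicate 1 (limma adjusted p = 0.0595), and that of chr11:96179326-96180900 without any one list of E11.5 or E17.5 (0.0526 to 0.0784). The rise of chr15:102864426-102865700 between E14.5 and E17.5 held in 3 of 8 runs (limma adjusted p 0.0293 to 0.113) and was lost without either E14.5 list, frontal replicate 1 or either occipital list. It was also lost with a pseudocount of 1000 bp (limma adjusted p = 0.076) and with loci in at least 3 lists (0.0525). The rise of chr15:102820526-102821775 against E11.5 was lost without E11.5 replicate 1, and that against E14.5 without E14.5 replicate 1. Its log2 change was 2.432 to 2.682 over left-out lists in both contrasts.

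Over a whole cluster, stages did not differ past adjustment. HoxB H3K4me2 covered 4650 and 9700 bp at E11.5, 4350 and 3225 bp at E14.5, 4775 and 2400 bp in frontal and 3500 and 3675 bp in occipital cortex. The mean of the 6 later lists minus that of E11.5 was -3521 bp, and frontal replicate 1 overlapped the E11.5 lists (exact two-sided permutation p = 0.0714 over 28 splits, adjusted over 8 tests p = 0.286). It was -6046 bp without E11.5 replicate 1 and -995.8 bp without E11.5 replicate 2. HoxC H3K4me2 covered 3600 and 8400 bp at E11.5, 3625 and 6250 bp at E14.5, 12450 and 9650 bp in frontal and 9450 and 9050 bp in occipital cortex. The 4 E17.5 lists were the highest, and the later lists exceeded E11.5 by 2413 bp (exact permutation p = 0.286, adjusted p = 0.643). Without E11.5 replicate 1 that difference was 12.5 bp, without E11.5 replicate 2 it was 4812.5 bp, and without frontal replicate 1 it was 1605 bp.

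HoxA H3K4me2 covered 9975 and 14025 bp at E11.5, 10525 and 12850 bp at E14.5, 15025 and 11775 bp in frontal and 10575 and 12675 bp in occipital cortex, with all tissues overlapping. HoxD H3K4me2 covered 14250 and 21750 bp, 16825 and 17075 bp, 19850 and 15200 bp, and 14425 and 14800 bp in the same order. Both occipital values of HoxD lay below those of E14.5 and of frontal cortex, while the E11.5 lists overlapped every tissue. The exact permutation p for later lists against E11.5 was 0.857 for HoxA and 0.571 for HoxD. Of the E11.5 replicates, replicate 2 had the longer list. The HoxA difference ranged from -1788 bp without E11.5 replicate 1 to 2263 bp without E11.5 replicate 2, and the HoxD difference from -5388 to 2113 bp without the same lists.

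For H3K27ac in HoxA the E11.5 lists stood apart from the later ones. It covered 0 bp in both, 825 and 800 bp at E14.5, 950 and 900 bp in frontal and 1000 and 1075 bp in occipital cortex. The difference of 925 bp had the smallest exact permutation p that 28 splits allow, 0.0357, and an adjusted p of 0.286. With the same number of widest regions from every list it shrank to 312.5 bp (exact permutation p = 0.786). HoxD H3K27ac (-1000 bp) and HoxB H3K4me2 (-4062.5 bp) then reached the smallest exact p of 0.0357 instead, with an adjusted p of 0.143 each. HoxB H3K4me2 also reached it with length scaled to the total of a list (adjusted p = 0.143). The HoxA H3K27ac came from different loci in the E14.5 replicates, chr6:52141701-52142525 in replicate 1 and chr6:52170976-52172175 in replicate 2. HoxC H3K27ac covered 1100 and 0 bp at E14.5, 1150 and 1425 bp in frontal and 575 and 0 bp in occipital cortex after 0 bp in both E11.5 lists (exact permutation p = 0.321). HoxD H3K27ac covered 1050 and 950 bp, 500 and 0 bp, 2150 and 0 bp, and 0 and 1250 bp (exact permutation p = 0.679). In each tissue after E11.5 the HoxD replicates disagreed on whether any region was there.

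Replicates overlapped more for H3K4me2 than for H3K27ac inside the clusters, except at E11.5. The length shared by both replicates over the length in either was 0.546 at E11.5, 0.673 at E14.5, 0.697 in frontal and 0.738 in occipital cortex for H3K4me2. For H3K27ac it was 0.86, 0, 0.302 and 0.345 in the same order. The E11.5 value rests on the single HoxD locus named above, and the E14.5 value of 0 on replicates that shared no H3K27ac sequence in any cluster.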

How the data were processed

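Regions were analysed from 16 mouse lists, 8 per mark. As the files show, the authors deposited 3 columns per list (chromosome, start, end) and no score, so the unit is an interval in bp and the depth is unknown; no counting interval was computed. Each list belongs to 1 sample. Bowtie 0.12.9 and the build mm9 are named in the submitters' processing notes. The region caller, with its threshold, counts as not given in the sources used here. The labelled tissue was not checked against marker genes, because no mm9 annotation was used here. Positions are written 1-based.

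The windows are those given with the members, and the members, lists and tests were chosen with earlier results of these data known. Covered length per window was compared with equal windows on both sides, or between marks within pairs that share an input per the design text, by exact two-sided sign-flip permutation. Stages were compared by exact permutation of 2 against 6 lists, and p-values were adjusted by Benjamini-Hochberg. Loci are merged touching or overlapping regions of the 8 lists of a mark. Those called in at least 2 lists were fitted with limma 3.58.1 (lmFit, eBayes with trend, R 4.3.3) on log2(covered bp + 200), which understates changes of short loci, with a mean per tissue and E17.5 as the mean of frontal and occipital cortex. Calls are at an adjusted p below 0.05 over all loci of the mark. An overlap of at least 1 bp counted as shared. Named loci were up to 4 per cluster and mark, ranked by number of lists and then mean covered bp, and every called locus; others named were chosen after their values were seen. Replicates were biological per the design text. Python 3.11.15 with numpy 2.4.6, pandas 2.3.3 and matplotlib 3.10.9 was used. Alternatives were wider or shifted windows, regions per 100 kb, an equal number of the widest regions, scaling to the total of a list, a pseudocount of 1000 bp, other filters and merging, a replicate block, and leaving out each list.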

Additional observations from a re-analysis of the deposited data

How the results depend on the processing

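All 8 comparisons with the windows on both sides and the 4 comparisons of marks kept direction and threshold when any list or pair was left out, and the 2 acetylated shares kept their direction. The comparison of marks in HoxB, which had no H3K27ac, could not have changed direction. Under the other alternatives, a call was lost with regions per 100 kb only, where the differences of -0.26 for HoxD H3K27ac and -0.179 for HoxC H3K4me2 kept their sign and missed the threshold. With wider or shifted windows, sizes moved by over 1.5 times for HoxC (H3K27ac to -18 and -19.8, H3K4me2 to -9.33 and -9.51 points), HoxD H3K27ac (-2.38) and HoxA H3K4me2 (5.24). With an equal number of the widest regions, HoxD H3K4me2 moved as much (7.48). Leave-one-out ranges were as follows, in percentage points against both sides for H3K27ac in HoxA -3.96 to -3.52, HoxB -6.57 to -6.08, HoxC -12.8 to -10.4 and HoxD -1.41 to -1.06, and for H3K4me2 in HoxA 3.04 to 3.7, HoxB -7.15 to -6.48, HoxC -3.24 to -2.16 and HoxD 10.8 to 11.8. For later lists minus E11.5, the HoxA H3K4me2 difference turned to -11.1 bp per Mb when scaled to the total of a list and to -2208 bp with an equal number of the widest regions, with a leave-one-out range of -1788 to 2263 bp. The range was -6046 to -995.8 bp for HoxB H3K4me2, 12.5 to 4812.5 bp for HoxC H3K4me2 and -5388 to 2113 bp for HoxD H3K4me2, and that of the anterior minus the posterior side of HoxA -450 to 7.14 bp. The cause was not tested. Hox H3K4me2 loci called ranged over left-out lists from 0 to 3 (E14.5 against E11.5), 1 to 8 (E17.5 against E11.5), 0 to 4 (E17.5 against E14.5) and 0 to 1 (frontal against occipital). The H3K27ac ranges were 0 to 1, 0 to 2, 0 to 1 and 0 to 0. With a pseudocount of 1000 bp the H3K4me2 counts were 1, 5, 1 and 1, with loci in at least 3 lists 0 for E14.5 against E11.5 and 1 for E17.5 against E14.5, and with scaling 1 for frontal against occipital. With an equal number of the widest regions they were 1, 9 (2 up, 7 down), 4 and 5. H3K27ac gave 1, downward, for E17.5 against E11.5 with the pseudocount of 1000 bp, with scaling and with equal numbers, and 1 for E14.5 against E11.5 with equal numbers. The labels tie no number to a shared animal. Same-numbered lists correlated at -0.204 to 0.0986 (H3K27ac) and -0.0432 to 0.242 (H3K4me2) in their deviations. Whether they share more than a number cannot be told from this. With the replicate block the count for H3K4me2 E17.5 against E14.5 was 1, and no other count changed. Whether a region near the calling threshold was listed cannot be resolved without depth.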
